A study of Mus musculus with 48 samples.

Results

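The genes described here carry the names of mitochondrial ribosomal proteins. They are the 77 rows, of 38293 in the count table, whose Ensembl identifier maps to a protein-coding mouse gene with an Mrpl or Mrps symbol followed by a number, so they were chosen by name and by no measured value. By name, 48 belong to the large subunit (Mrpl) and 29 to the small subunit (Mrps). Of the 77, 43 have a number that bacterial ribosomal proteins also carry, and 34 have a higher number, given mostly to proteins specific to mitochondria. The genes lie on 17 autosomes, 11 of them on chromosome 11. All but 1 passed the filter on low counts in every comparison, so 76 were tested throughout. The exception was Mrpl53, which had 0 counts in 37 of 48 libraries and a highest count of 20. The annotation gives 88% of its exon bases to other genes as well, and reads from such bases cannot be assigned to 1 gene in libraries that keep no strand.

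Mitochondrial ribosomes sit in the mitochondrial matrix and translate the few mRNAs made from mitochondrial DNA, which encode core subunits of the respiratory chain and of ATP synthase. Their RNAs are made inside the organelle, but their proteins are encoded in the nucleus, translated on cytosolic ribosomes and imported. A pull-down of cytosolic ribosomes therefore captures Mrpl and Mrps mRNAs while they are translated, and does not target the mRNAs that mitochondrial ribosomes translate.

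The tissues were the DVC, the hindbrain's dorsal vagal complex, where vagal fibres from the gut end, and the MBH, or mediobasal hypothalamus, and bulk RNA was sequenced from both. Input libraries hold total RNA from a small aliquot of each clarified homogenate. IP libraries hold RNA from ribosomes pulled down from the rest of that homogenate with an antibody against ribosomal protein S6 phosphorylated at positions 240 and 244, a mark that rises in active neurons. All animals were male C57/Bl6 mice, 9 weeks old and fasted for 6 h, and they received 10 µL per g of body weight intraperitoneally. The 4 treatments were saline, 1 µg/kg of AC3174, 2.5 µg/kg of AC170222, and a combination for which the labels state no separate doses. The series title speaks of GLP-1 with CCK. The labels also write AC710222, at 2.5 or 10 µg/kg, for what the titles call AC170222. Neither how long after injection tissue was taken nor how many mice made up a sample is stated. Region, RNA kind and treatment define 16 groups with 3 libraries in each, 48 in all. Since nothing says that the 3 came from separate mice, p-values measure the spread between these libraries only.

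Total counts per library, to 4 digits, were 102100000 to 191200000 in the DVC IP, 29490000 to 95080000 in the DVC input, 21780000 to 73940000 in the MBH IP and 36540000 to 80080000 in the MBH input. In 6 IP libraries fewer than 12000 genes were detected. They were AC3174 sample 3 in the DVC, and saline sample 3, AC3174 samples 2 and 3 and AC170222 samples 2 and 3 in the MBH. In the MBH IP of AC3174 sample 3, 31 of the 77 genes had 0 counts, and in that of AC170222 sample 3, 13 had 0 counts. The DVC marker list was higher in DVC input than in MBH input for 9 of 9 genes and the MBH marker list was lower for 9 of 10, so the input libraries matched their region labels.

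The letters of ETS, YY1 and NRF1 motifs stood in a larger share of these genes' promoters than of all coding promoters, each in a minority of them. RefSeq (GRCm38.p6) windows from 250 bases before to 50 bases after the transcription start were matched for 68 of the 77 genes, in 74 windows. The letters CCGGAAG, the core recognised by ETS factors such as GABP, stood on either strand in 33.8% of these windows, against 11.9% of the 20150 windows of protein-coding genes. AAGATGGC, the core of the YY1 motif, stood in 16.2% against 3.11%, and each of its 8 matches on the gene's own strand lay after the start. GCATGCGC, the core of the NRF1 motif, stood in 9.46% against 3.65%. The Sp letters GGGCGG stood in 52.7% against 47.8%, and CCAAT in 39.2% against 37.8%. TATAAA was found in 6.76% against 12.1%, and the ZNF143 motif in 0.0% against 0.447%. These shares were not tested. The full NRF1 motif, which contains that core, stood in 4.05% against 1.38%. A match is a run of letters and no measure of binding.

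The 100 bases before the start are printed for 4 genes that hold CCGGAAG there and were called higher in the DVC IP, and for Mrps30, the gene that went the other way. Sequences run 5′ to 3′ on the gene's strand, and capitals mark CCGGAAG.
Mrpl27, plus strand of chr11:94653691-94653790: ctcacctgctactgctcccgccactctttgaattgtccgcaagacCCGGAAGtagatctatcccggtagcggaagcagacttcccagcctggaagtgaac
Mrpl43, minus strand of chr19:45006443-45006542: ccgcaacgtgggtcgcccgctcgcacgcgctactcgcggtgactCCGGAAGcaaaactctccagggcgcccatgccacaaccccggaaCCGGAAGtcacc
Mrpl51, plus strand of chr6:125192100-125192199: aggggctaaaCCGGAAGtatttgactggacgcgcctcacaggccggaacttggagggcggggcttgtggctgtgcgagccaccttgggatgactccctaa
Mrps18a, plus strand of chr17:46110904-46111003: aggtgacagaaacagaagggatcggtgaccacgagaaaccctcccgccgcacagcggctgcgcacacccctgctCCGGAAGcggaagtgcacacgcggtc
Mrps30, minus strand of chr13:118387253-118387352: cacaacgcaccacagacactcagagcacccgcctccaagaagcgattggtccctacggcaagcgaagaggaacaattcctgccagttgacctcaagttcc
The Mrpl43 stretch holds the letters in 2 places and the Mrps30 stretch in none.

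Many of the genes also start beside another gene. By the GENCODE M21 annotation, 18 of the 77 (23.4%) have a protein-coding neighbour that starts within 1000 bases and runs the other way, against 6.8% of all 21250 protein-coding genes. The closest such pair was Mrpl54 with Apba3, at 26 bases. Mrpl49 starts 59 bases from Fau, which encodes a cytosolic ribosomal protein, and Mrps12 starts 172 bases from Sars2, which encodes the mitochondrial seryl-tRNA synthetase.

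In total RNA the mRNAs were present at moderate levels that differed widely between genes. Per kilobase of mRNA, the median over the 76 genes was 41.6 CPM (counts-per-million) per kb in the DVC input and 48.6 in the MBH input. Mrpl42 had the highest mean level in both, at 274.8 CPM per kb in DVC and 245.5 in MBH. Mrps35 had the lowest of the 76, at 7.15 in DVC and 9.16 in MBH. Large-subunit genes had a median of 44.6 CPM per kb in the DVC input and small-subunit genes 36.5, with ranges that overlapped (8.58 to 274.8 and 7.15 to 155.4).

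In the DVC, mRNAs for mitochondrial ribosomal proteins were enriched on phospho-S6 ribosomes. Of the 76 genes, 35 were called higher in IP than in input (edgeR quasi-likelihood test, adjusted p under 0.05), where 6.8% of all 18465 genes tested were called higher, and 1 was called lower, where 13.6% were. Their median log2 difference was 0.55, against -0.37 over all genes, and 72 of 76 had a value above 0, against 38.3% of all genes. By symbol, Mrpl genes gave 21 higher calls among 47, with all 47 above 0, and Mrps genes gave 14 higher and 1 lower among 29, with 25 above 0. In bulk tissue a change in the number of cells of a type and a change in RNA per cell cannot be told apart. Without adjustment, at p under 0.05, 54 were higher and 1 lower, against 10.4% and 21.2% of all genes. The test above does not pair IP and input. With the sample as a block, pairing each IP with the input of the same sample number, 13 genes were called higher and 1 lower. The share of all genes called under this block is not given here, so these counts have no background beside them.

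**Figure D1:**
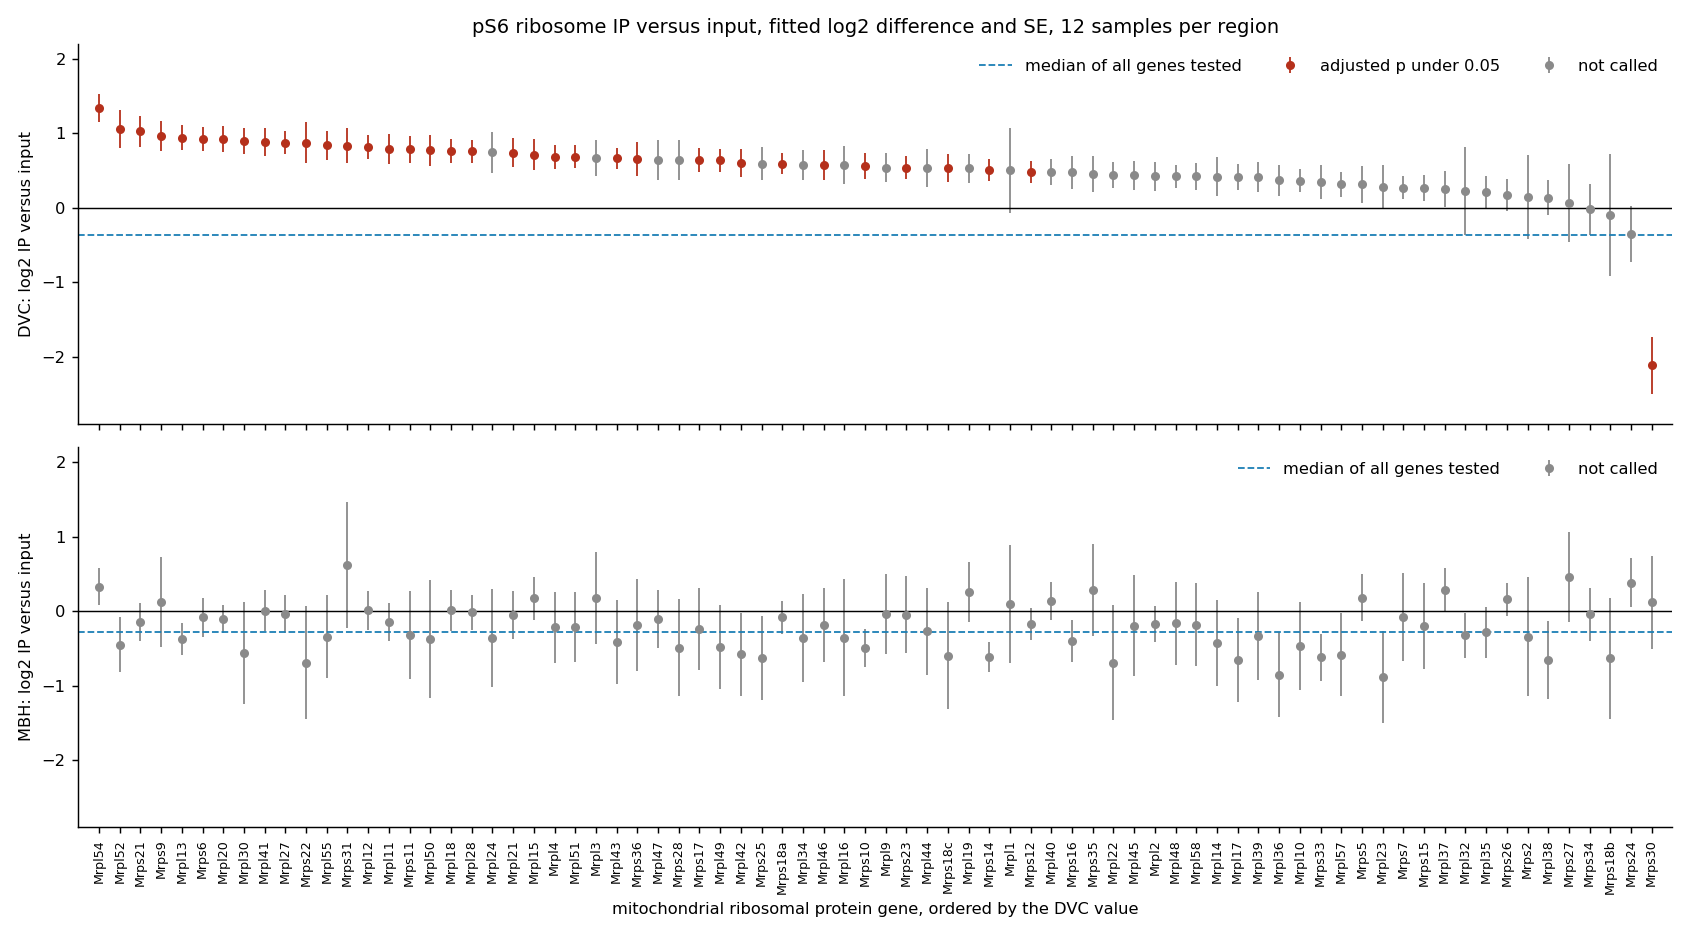
Fitted log2 difference between IP and input (y axis) for each of the 76 genes (x axis, ordered by the DVC value) in the DVC (top) and the MBH (bottom), with SE bars, over 12 IP and 12 input libraries per region. In the DVC 72 points lie above 0 and Mrps30 lies at -2.12, and in the MBH no gene was called and 18 points lie above 0.

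Mrpl54 showed the largest difference. Its level ran from a lowest of 81.6 CPM through a median of 108 to a highest of 214.8 in the 12 DVC IP libraries, and from 29.3 through 44.0 to 64.4 in the 12 inputs. Every IP library therefore lay above every input library. The fitted log2 difference was 1.34 ± 0.19 (SE), with adjusted p = 0.000116. Mrpl12, which forms the flexible stalk that recruits translation factors, was the other gene without overlap, with 79.8, 108 and 162.7 CPM in IP against 42.5, 53.5 and 77.8 in input. Its log2 difference was 0.82 ± 0.16 (adjusted p = 0.00188). Over all genes tested, 0.525% had no overlap in this direction.

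The other genes with the strongest calls shifted by a little under or around 1 log2 unit, with the tails of IP and input overlapping. Mrpl27, the homologue of bacterial L27 at the peptidyl transferase centre, had 112.9, 213.2 and 287.9 CPM (lowest, median, highest) in IP and 83.5, 98.9 and 166.8 in input, a log2 difference of 0.87 ± 0.15 (adjusted p = 0.000658). Mrpl13 had 94.5, 164.0 and 255.7 CPM against 59.2, 84.0 and 109.6, a difference of 0.94 ± 0.16 (adjusted p = 0.000743). Both IP medians lay above the highest input. Mrpl20 ranged more widely in IP, from 62.3 CPM in AC3174 sample 3 to 487.5 in saline sample 3, with a median of 268.0 against 123.3 in input (0.92 ± 0.18, adjusted p = 0.00159). Mrps6 (0.92 ± 0.16, adjusted p = 0.000721), Mrpl30 (0.89 ± 0.17, adjusted p = 0.00178) and Mrps21 (1.02 ± 0.20, adjusted p = 0.00211) completed the list. All 8 were also called with the sample as a block, with adjusted p from 0.0059 for Mrpl54 to 0.0344 for Mrpl30.

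**Figure D2:**
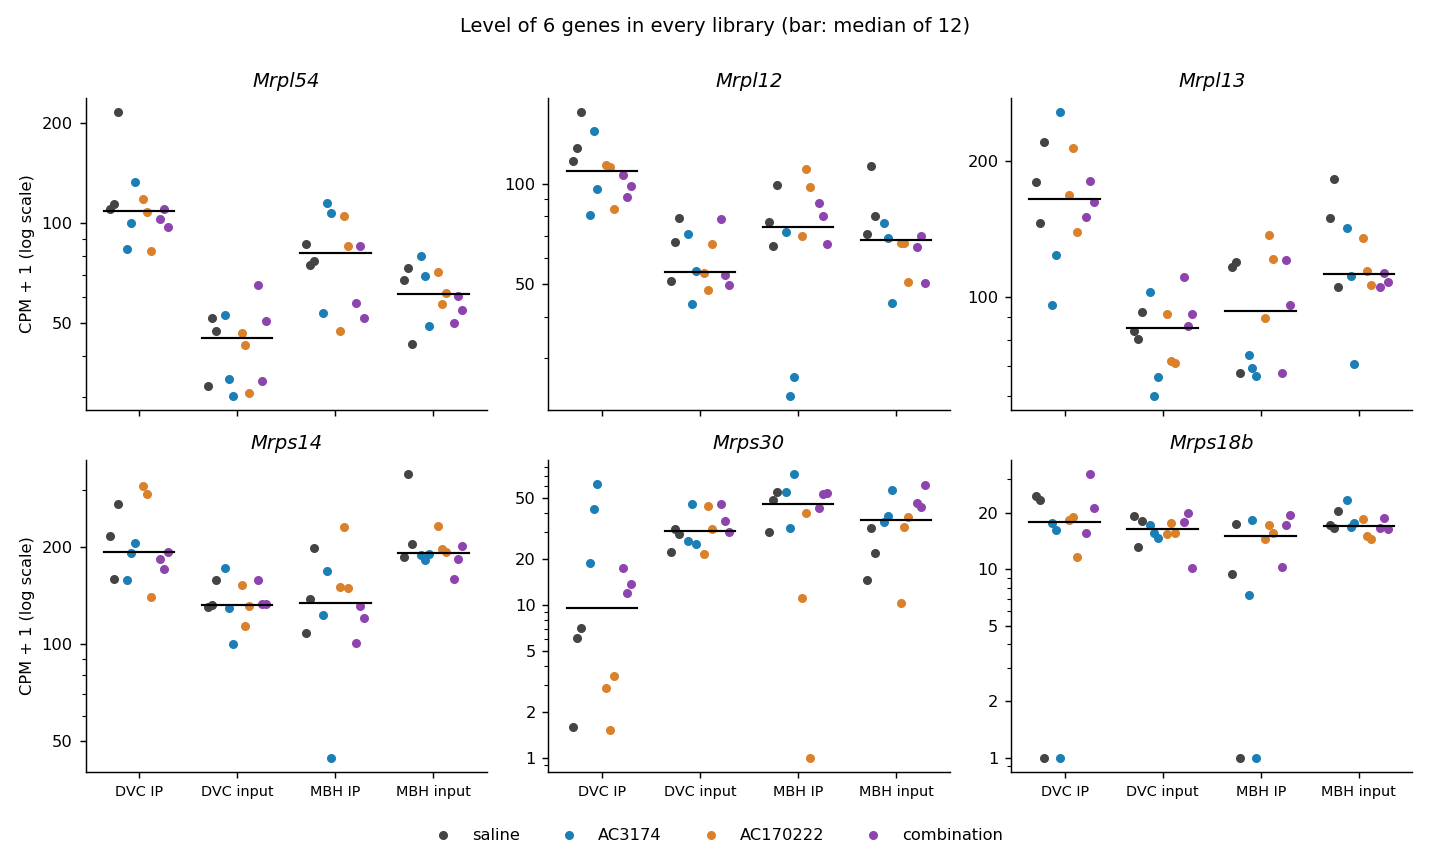
Level (CPM + 1, log scale) of 6 genes in each of the 48 libraries, grouped by region and RNA kind on the x axis, coloured by treatment, with a bar at the median of 12. The DVC IP libraries of Mrpl54 and Mrpl12 lie above all their DVC inputs, and Mrps30 lies lowest in the DVC IP of saline and AC170222 samples.

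Some large-subunit genes were assigned to functional parts, each to 1 part only, and the lists are not complete. EdgeR called genes listed under the stalk, the core and the central protuberance. It called none of the 5 genes listed around the exit tunnel, where DESeq2 did. The parts were not compared by a test. Of the 3 stalk genes, Mrpl12 and Mrpl11 (0.79 ± 0.20, adjusted p = 0.00981) were called higher and Mrpl10, at the stalk base, was at 0.36 ± 0.16 (adjusted p = 0.121). At the peptidyl transferase centre and core, Mrpl27 and Mrpl4 (0.69 ± 0.16, adjusted p = 0.0062) were called, and Mrpl2, Mrpl3 and Mrpl16 were at 0.43, 0.67 and 0.57 without a call. Of the 5 genes listed around the exit tunnel, Mrpl17, Mrpl22, Mrpl23, Mrpl24 and the membrane anchor Mrpl45 were at 0.41, 0.44, 0.28, 0.75 and 0.43 without a call by edgeR. DESeq2 called Mrpl22 (0.32, adjusted p = 0.0298) and Mrpl24 (0.62, adjusted p = 0.0194) higher. In the central protuberance, Mrpl18 (0.76 ± 0.17, adjusted p = 0.00374) and Mrpl46 (0.57 ± 0.20, adjusted p = 0.0477) were called, and Mrpl38, Mrpl40 and Mrpl48 were at 0.13, 0.48 and 0.42. Mrpl41 was called (0.88 ± 0.18, adjusted p = 0.00294), while Mrpl58, a peptidyl-tRNA hydrolase built into the ribosome, Mrpl44, which has a ribonuclease III fold, and Mrpl37 were at 0.42, 0.53 and 0.25. Pairing by sample ended the calls of Mrpl4, Mrpl11, Mrpl41 and Mrpl46, with adjusted p of 0.0713, 0.052, 0.0507 and 0.177. The call of Mrpl46 held in 6 of 22 alternatives and its sign changed in 1, whereas Mrpl4, Mrpl11 and Mrpl41 held in 18 each.

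In the small subunit, Mrps12, at the decoding centre, rose by 0.48 ± 0.15 (adjusted p = 0.0259), Mrps11 by 0.79 ± 0.18 (adjusted p = 0.0053) and Mrps22 by 0.87 ± 0.27 (adjusted p = 0.0295). Mrps5, Mrps7 and Mrps16 were at 0.31, 0.27 and 0.48 without a call. The 3 S18 paralogues, of which Mrps18a sits in the large subunit, differed from one another in level and in call. Mrps18a (0.59 ± 0.14, adjusted p = 0.00756) and Mrps18c (0.53 ± 0.19, adjusted p = 0.0494) were called, whereas Mrps18b was at -0.09 ± 0.82, with 0 counts in 2 of 12 DVC IP libraries and a median of 16.9 CPM. Mrps27, a pentatricopeptide repeat protein, was at 0.06 ± 0.53. Its IP level was 0.0203 CPM in AC3174 sample 3 and 30.9 to 108 in the others. Mrps36, in the set by its name, belongs to the oxoglutarate dehydrogenase complex. It was called at 0.66 ± 0.23 (adjusted p = 0.0461), and 3 annotated pseudogene copies make its counts uncertain. Mrpl23 and Mrpl48 have 1 such copy each. Under the sample block the calls of Mrps11, Mrps12, Mrps18a, Mrps18c, Mrps22 and Mrps36 ended, at adjusted p from 0.0536 to 0.192. Over 22 alternatives the call of Mrps36 held in 7, Mrps18c in 9, Mrps22 in 12, Mrps12 in 16, and Mrps11 and Mrps18a in 19 each.

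Mrps30 was the exception. Despite its name the protein sits in the large subunit. Its level in the DVC IP was 0.598, 5.08 and 6.07 CPM in the saline samples, 1.86, 0.508 and 2.43 after AC170222, 16.4, 11.1 and 12.7 after the combination, and 17.8, 41.4 and 60.8 after AC3174. In the DVC inputs it lay between 20.6 and 44.9 CPM. All saline, AC170222 and combination IP libraries thus lay below the lowest input, and 2 of the AC3174 IP libraries lay within or above the input range. The fitted log2 difference between IP and input over all treatments was -2.12 ± 0.38 (adjusted p = 0.00103), and the call held with the sample block (-2.31, adjusted p = 0.0176). In the MBH its IP level had a median of 45.0 CPM against 35.2 in input. The annotation gives 9.3% of its exon bases to a gene on the other strand as well. Other genes share more: Mrpl43 33.4%, Mrps18b 30.5%, Mrpl24 26.3% and Mrps27 24.2%. Among 8 tested genes with over 20% shared, 1 was called higher in the DVC IP and 0 lower. Among the 68 with at most 20% these were 34 and 1.

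The difference was seen within most single samples. The median log2 ratio of IP to input over the 76 genes (CPM + 2) was above 0 in 11 of 12 DVC samples and lay above the all-gene median of the same sample in 11 of 12. It ran from -0.01 in AC3174 sample 1 to 0.97 in AC170222 sample 2. The 3 lowest values, -0.01, 0.14 in combination sample 1 and 0.27 in AC170222 sample 3, all belonged to libraries whose title codes carry 03 or 04 (library set 2). The fourth sample of that set, saline sample 3, was at 0.76. Fitted within sets, which hold 4 samples each, the members' median was 0.80 in set 1 with 32 higher calls, 0.16 in set 2 with 0 and 0.64 in set 3 with 0. Of the 76 genes, 49 were higher in IP than in the paired input in at least 10 of 12 samples. The share of all genes that were so was not computed.

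**Figure D3:**
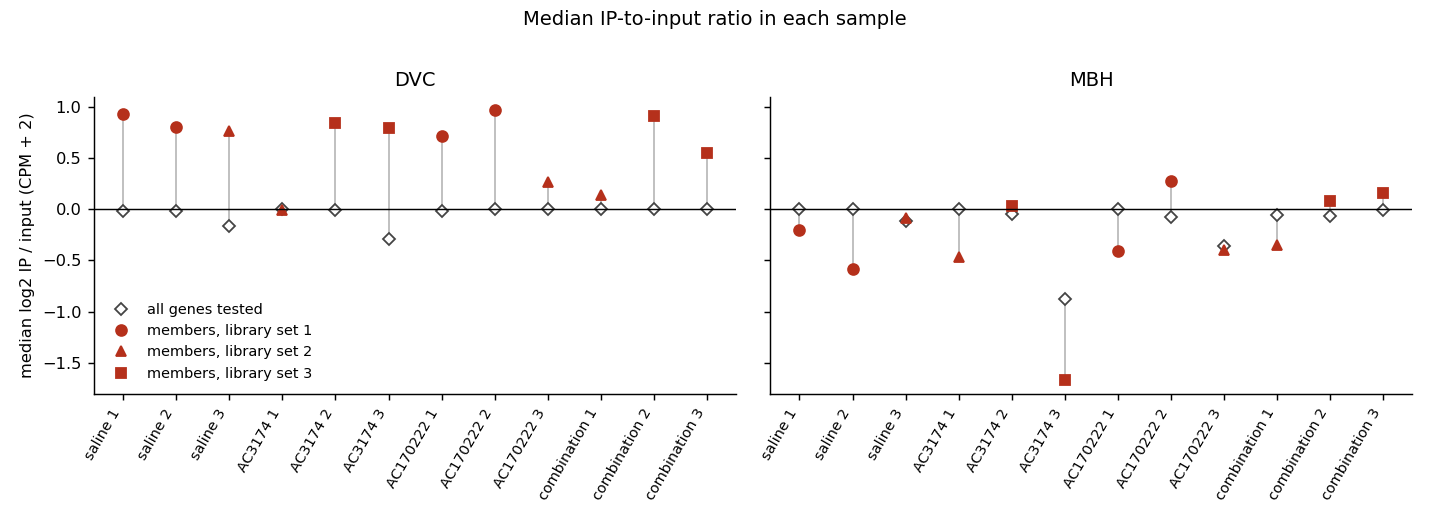
Median log2 ratio of IP to input (y axis, CPM + 2) in each sample (x axis) of the DVC and the MBH, for the 76 genes (marker by library set) and for all genes tested (diamonds). The 76-gene points lie above the diamonds in 11 of 12 DVC samples and in 5 of 12 MBH samples, and the lowest is AC3174 sample 3 in the MBH at -1.67.

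Other genes of mitochondrial protein synthesis moved unevenly in the same comparison. Among the 5 further subunits with other names, Chchd1 (0.97 ± 0.19, adjusted p = 0.00208) and Aurkaip1 (0.67 ± 0.14, adjusted p = 0.00348) were called higher and none lower. Of 14 translation factors 4 were higher, led by the elongation factor Gfm1 (0.99 ± 0.15, adjusted p = 0.000288), with a list median of 0.31. Of 25 genes for mitoribosome assembly, 1 was higher (Mterf3, 1.03 ± 0.28, adjusted p = 0.0147) and 1 lower (the GTPase Noa1, -1.52 ± 0.29, adjusted p = 0.0015), with a median of 0.28. Of 20 mitochondrial aminoacyl-tRNA synthetases and related enzymes, 1 was higher and the median was 0.10. Among 16 genes for the copying and transcription of mitochondrial DNA none was higher and 1 was lower, with a median of -0.22.

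Of 74 nuclear-encoded respiratory chain and ATP synthase genes, 68 were called higher in the DVC IP, with a median log2 difference of 0.78. Cox7b was at 1.44 ± 0.15 (adjusted p = 1.1e-05). All 13 mRNAs encoded in mitochondrial DNA were called lower, with a median of -4.67 and mt-Co2 at -4.80 ± 0.71 (adjusted p = 0.000181). Cytosolic ribosomal protein genes gave 34 higher calls among 81 and a median of 0.50, close to the 0.55 of the mitochondrial set. Neuron markers were higher for 5 of 11 genes, none was lower, and their summed level ran from 16680 to 41190 CPM in IP and from 13770 to 16270 in input. Oligodendrocyte markers were lower for 4 of 9, with a summed level of 1638 to 7261 CPM in IP and 6128 to 9139 in input. Microglia markers were lower for 6 of 10. Astrocyte markers were called higher for 2 of 9 and lower for 0, but only 4 of 9 had a value above 0 and their median was -0.25. Their summed level was 3846 to 15860 CPM in IP and 3466 to 4825 in input. Red blood cell markers were higher for 2 of 5 and lower for 0. Lower calls were 4 of 6 for oligodendrocyte precursor, 6 of 9 for endothelial and mural and 2 of 8 for choroid and ependymal markers. The part of these lists in the members' result was not tested.

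The mRNAs of the set are short. Their median length was 1316 bases, against 2960 for the protein-coding genes tested, with coding regions of 588 against 1362 bases. Shorter mRNAs were called higher more often among all coding genes, from 23.5% of those up to 1000 bases to 3.37% of those over 4000. Within each length class the share was larger among the mitochondrial ribosomal genes: 14 of 23 (60.9%) up to 1000 bases, 13 of 22 (59.1%) from there to 1500, 3 of 10 (30.0%) to 2500, 3 of 12 (25.0%) to 4000 and 2 of 9 (22.2%) beyond. The last 3 classes hold few genes. Across the 76 genes, which share libraries and depth, Spearman's rho between mRNA length and log2 difference was -0.30, and across 15222 coding genes it was -0.17. Between mean DVC input level and log2 difference, rho was 0.14 across the 76 genes and 0.36 across the 15222. The part of level in the members' result was not tested. By promoter letters, 12 of 24 tested genes with CCGGAAG were called higher and 19 of 43 with a window lacking it. Among genes with a head-to-head neighbour 8 of 18 were called, and among the others 27 of 58.

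**Figure D4:**
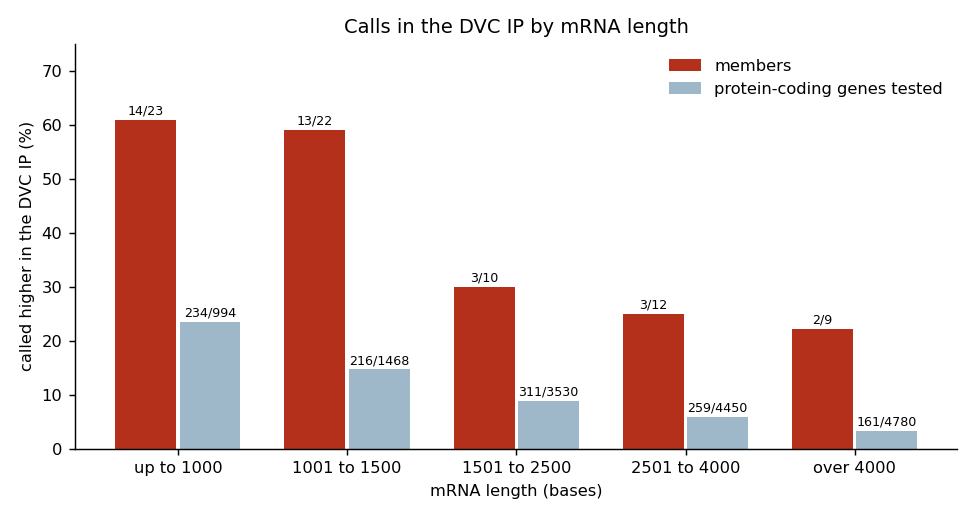
Share of genes called higher in the DVC IP (y axis, percent) by mRNA length in bases (x axis), for the mitochondrial ribosomal protein genes and for all protein-coding genes tested, with called and tested numbers above each bar. The share falls with length in both sets, from 60.9% to 22.2% and from 23.5% to 3.37%.

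In the MBH no such enrichment was detected. None of the 76 genes was called in either direction by edgeR, by limma-voom or by DESeq2, where 0.16% of all 17461 genes tested were called higher and 0.292% lower by edgeR. At an unadjusted p under 0.05, 0 were higher and 1 was lower, against 2.37% and 8.95% of all genes. The members' median log2 difference was -0.19, against -0.28 over all genes, and 18 of 76 were above 0, against 35.2% of all genes. Mrps14 came closest to a call, with 43.5, 133.2 and 228.6 CPM (lowest, median, highest) in IP against 157.4, 189.8 and 333.7 in input and a difference of -0.62 ± 0.20 (adjusted p = 0.178). Its IP lay below its input in 11 of 12 samples, while in the DVC it was higher in IP in 11 of 12. Mrps10 (-0.49 ± 0.26, adjusted p = 0.534) and Mrps33 (-0.62 ± 0.32, adjusted p = 0.514) followed. The extremes were Mrps31 at 0.62 ± 0.84 and Mrpl23 at -0.88 ± 0.61.

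Errors were larger in the MBH, so smaller differences could go undetected there. Mrpl12 had an SE of 0.16 in the DVC and 0.26 in the MBH, where its values were 22.2, 73.3 and 109.6 CPM in IP against 43.1, 66.7 and 112.3 in input. The per-sample median ratio was above 0 in 4 of 12 MBH samples and ran from -1.67 in AC3174 sample 3, the library with 31 genes at 0, to 0.27 in AC170222 sample 2. Nuclear respiratory chain genes gave 0 calls among 74 in the MBH (median -0.21), cytosolic ribosomal protein genes 0 among 79 (-0.41), and mRNAs encoded in mitochondrial DNA 3 lower among 13 (-3.82). Neuron markers gave 0 calls among 11, and their summed level was 4984 to 12980 CPM in IP and 7345 to 9101 in input.

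The difference between the regions was tested as an interaction of region and RNA kind. The IP-versus-input difference was larger in the DVC for 9 of 76 genes, where 2.33% of 19416 genes were called in that direction, and smaller for 0, where 2.06% were. Without adjustment, at p under 0.05, 25 were larger and 1 smaller, against 6.88% and 6.52%, and DESeq2 called 1 smaller and limma-voom 0. The median of the 76 interaction values was 0.89, against 0.03 over all genes, and 73 were above 0, against 51.0% of all genes. Mrpl13 led (1.37 ± 0.25, adjusted p = 0.000822), from 0.94 in the DVC and -0.38 in the MBH. Mrps14 followed (1.17 ± 0.25, adjusted p = 0.00352), from 0.51 and -0.62. Mrpl20 (1.07 ± 0.25, adjusted p = 0.00726), Mrps21 (1.22 ± 0.31, adjusted p = 0.0162), Mrps6 (1.06 ± 0.29, adjusted p = 0.0238), Mrps10 (1.10 ± 0.30, adjusted p = 0.0263), Mrpl54 (1.06 ± 0.29, adjusted p = 0.0266) and Mrpl52 (1.54 ± 0.44, adjusted p = 0.0337) came next, and Mrpl27 was the ninth (0.97 ± 0.29, adjusted p = 0.0449). Mrps30 was at -2.19 ± 0.74 (adjusted p = 0.0891). In the same test 55 of 74 nuclear respiratory chain genes, 35 of 81 cytosolic ribosomal protein genes and 5 of 11 neuron markers were called higher. The part of the neuron markers in the members' values was not tested. The inputs of both regions enter this test. Of the 9 genes, Mrpl13, Mrps14, Mrpl20, Mrpl54 and Mrpl52 were also called lower in DVC input than in MBH input, where 10.2% of all genes were. Mrps21, Mrps6, Mrps10 and Mrpl27 were not. The part of the input difference in the interaction was not tested.

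The number of calls changed with the libraries and with the model. With the sample block only Mrpl13 and Mrps14 were called, without all samples numbered 1 or all numbered 2 no gene was, and without those numbered 3 there were 17 higher calls and 1 lower. Without the 6 low-complexity IP libraries and the inputs of the same samples, the AC3174 and AC170222 groups of the MBH held 1 sample each. The calls of that fit are therefore not given.

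In total RNA, 28 of the 76 genes were called lower in DVC input than in MBH input and 48 were not called, with 11 values above 0. Over all 18576 genes, 10.2% were called lower and 54.8% had a value above 0. No gene of the set (0) was called higher by edgeR, where 11.7% of all genes were. The unadjusted p was under 0.05 for 2 higher and 41 lower genes, against 18.4% and 14.9%, and DESeq2 called 2 higher and limma-voom 1. The median log2 difference was -0.31, against 0.10 over all genes. Mrps17 ran from 69.2 through 81.5 to 97 CPM in DVC and from 93.6 through 120.8 to 178.4 in MBH (-0.61 ± 0.09, adjusted p = 9.4e-05), an overlap at the edges only. Mrpl32, whose processing by the m-AAA protease precedes its assembly into the ribosome, did not overlap, at 31.0 to 49.6 CPM in DVC and 53.7 to 120.7 in MBH (-0.72 ± 0.12, adjusted p = 0.000277). Over all genes tested, 1.46% had no overlap in this direction.

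The next calls were Mrps18c (-0.78 ± 0.14, adjusted p = 0.000429), Mrpl57 (-0.63 ± 0.12, adjusted p = 0.000559), Mrps14 (-0.55 ± 0.11, adjusted p = 0.000769), Mrps12 (-0.56 ± 0.11, adjusted p = 0.0011), Mrpl23 (-0.82 ± 0.17, adjusted p = 0.0014) and Mrpl50 (-0.52 ± 0.11, adjusted p = 0.00194). Cytosolic ribosomal protein genes were lower in DVC input for 66 of 81 (median -0.60), whereas nuclear respiratory chain genes were higher for 10 and lower for 2 of 74 (median 0.04). Oligodendrocyte markers were higher in DVC for 9 of 9 genes, with a summed level of 6128 to 9139 CPM against 1450 to 3348 in MBH, and neuron markers for 8 of 11, with 13770 to 16270 against 7345 to 9101. Their part in the members' difference was not tested. Without all samples numbered 1, 2 or 3, the lower calls were 14, 10 and 11. The letters in the library codes differ between the regions, so region and code letter cannot be told apart.

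**Figure D5:**
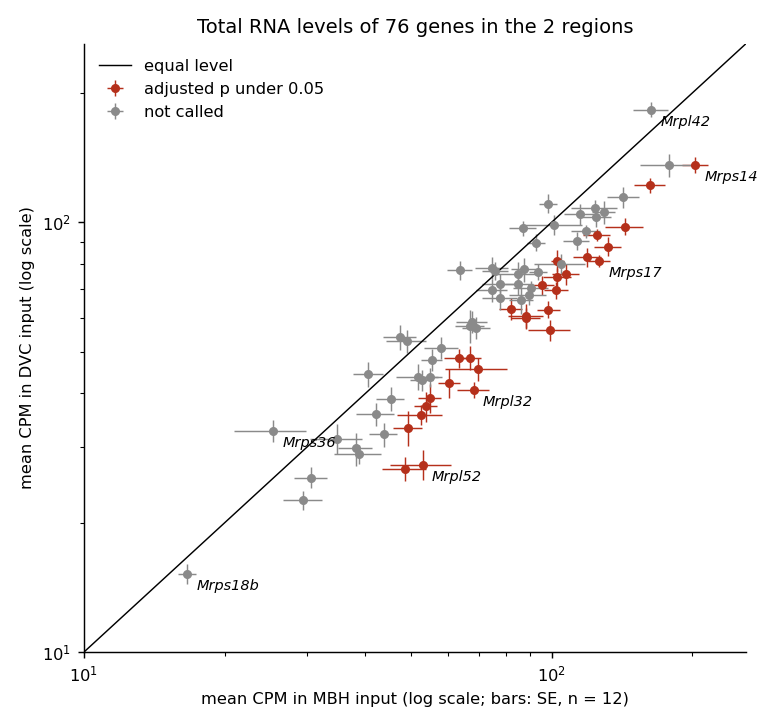
Mean level (CPM, log scale) of the 76 genes in MBH input (x axis) and DVC input (y axis), with SE over 12 libraries, and the line of equal level. The 28 called genes lie below the line, and Mrps36 is the farthest above it, at 32.8 CPM in DVC and 25.4 in MBH.

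The drugs were compared with saline in each region and RNA kind, and no gene of the set was called by edgeR in any of the 12 drug comparisons, the 6 comparisons of IP-to-input ratio or the 4 tests of non-additivity, in which the combination is set against the sum of both single drugs. Among all genes 0.0% were called in the 12 drug comparisons, the 4 tests and the MBH ratios, and in the DVC ratios 0.0379% were called higher after AC3174, 0.0271% after AC170222 and 0.0379% after the combination. limma-voom called none of the set either, and the DESeq2 calls are given with their comparisons. The 3 drug groups of a region and kind share 3 saline libraries, so their values are given side by side and are not independent.

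In the DVC IP the members' median log2 difference from saline was -0.32 after AC3174, -0.13 after AC170222 and -0.16 after the combination, against -0.02, 0.03 and 0.07 over all genes. At an unadjusted p under 0.05, 1 gene was higher and 5 lower after AC3174, where 4.8% and 1.78% of all 15815 genes were. After AC170222 these were 0 and 1 (4.3% and 0.948% of all genes), and after the combination 0 and 1 (4.49% and 0.955%). Mrpl20 went from 329.4, 312.7 and 487.5 CPM in saline to 149.1, 223.2 and 62.3 after AC3174, with no overlap and a log2 difference of -1.37 ± 0.45 (adjusted p = 0.677). The lowest of these values came from AC3174 sample 3, a low-complexity library with 9925 genes detected. The highest came from saline sample 3, with 12652. Mrps12 was at -0.92 ± 0.38 (adjusted p = 0.677). Groups did not overlap for 8 lower genes after AC3174 and 2 higher, where 4.21% and 3.97% of all genes did not.

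Mrps30, whose values are given above, was higher in all 3 AC3174 than in all 3 saline IP libraries of the DVC, by 3.33 ± 1.27 (adjusted p = 0.677). DESeq2 called this difference (adjusted p = 0.00264), as well as Mrpl20 and Mrps12 as lower. The highest Mrps30 value after AC3174 came from sample 3, a low-complexity library. Its combination libraries, singled out after their values were seen, also lay above all saline ones, where 6.72% of all genes did so. Treatment is partly confounded with library set: saline and AC170222 samples 1 and 2 are in set 1, AC3174 and combination samples 2 and 3 in set 3, and 1 sample of each treatment in set 2. Within set 2, Mrps30 was at 6.07 CPM after saline, 2.43 after AC170222, 17.8 after AC3174 and 16.4 after the combination. With the set in the model, the difference of AC3174 from saline was 2.37 (adjusted p = 0.979). This layout holds for all drug comparisons. In the MBH input, Mrps30 had 13.5, 30.9 and 20.9 CPM in saline and 9.34, 31.4 and 36.5 after AC170222, with an overlap. It had 34.0, 37.1 and 55.6 CPM after AC3174 and 45.6, 42.9 and 60.1 after the combination, without overlap with saline. Of all genes, 5.91% were higher without overlap after AC3174 and 10.6% after the combination. In the DVC input the Mrps30 groups overlapped, at 21.3, 30.4 and 28.4 in saline and 25.1, 44.9 and 24.1 after AC3174.

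After AC170222 the gene closest to a call in the DVC IP was Mrps26, at 42.9, 33.9 and 100.7 CPM against 99.6, 125.0 and 337.1 in saline (-1.68 ± 0.58, adjusted p = 0.852). Mrps24 was at -2.33 ± 1.07 (adjusted p = 0.852). After the combination it was Mrpl18, at 153.1, 123.2 and 119.1 CPM against 183.2, 177.6 and 382.7 (-0.91 ± 0.40, adjusted p = 0.817). Saline sample 3 was the highest library in both genes.

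In the DVC input the medians were -0.09, -0.07 and 0.04, against 0.00, -0.01 and -0.00 over all genes. At an unadjusted p under 0.05, 2 genes were higher and 1 lower after AC3174 (2.59% and 2.22% of all genes), 3 and 0 after AC170222 (2.39% and 1.8%) and 3 and 1 after the combination (2.57% and 2.8%). Mrpl1 had the smallest p in all 3 comparisons. Its level was 19.6, 24.8 and 33.0 CPM in saline, 42.7, 44.9 and 36.8 after AC3174, 43.9, 37.6 and 36.1 after AC170222 and 32.8, 37.5 and 39.7 after the combination, with an overlap in the last only. The differences were 0.71 ± 0.24, 0.63 ± 0.24 and 0.54 ± 0.24, with adjusted p of 0.993, 1.0 and 0.891. Of all genes, 4.35% were higher without overlap after AC3174 and 4.21% after AC170222.

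In the MBH input the genes tended to lie lower after each drug, at medians of -0.34 after AC3174, -0.28 after AC170222 and -0.36 after the combination, against 0.01, 0.04 and 0.08 over all genes. At an unadjusted p under 0.05, 9, 4 and 14 genes were lower, where 4.21%, 2.89% and 3.24% of all 16622 genes were, and 0, 0 and 2 were higher, where 4.38%, 3.68% and 5.33% were. Mrpl4 was the first in each. It had 165.4, 251.5 and 141.5 CPM in saline, 79.4, 136.5 and 77.8 after AC3174, 128.3, 98.4 and 102.2 after AC170222 and 102.8, 96.2 and 108.8 after the combination, so that all 9 treated libraries lay below all 3 saline ones. Taken drug by drug, 4.5%, 3.66% and 7.6% of all genes were lower without overlap. DESeq2 called 1 gene, Mrps7, lower after AC3174 (-0.42, adjusted p = 0.0264). The differences of Mrpl4 were -0.92 ± 0.28, -0.77 ± 0.28 and -0.83 ± 0.28, with adjusted p of 0.56, 0.709 and 0.566. After the combination, groups did not overlap for 22 lower and 3 higher genes, where 7.6% and 10.6% of all genes did not. Respiratory chain genes had medians of -0.46, -0.42 and -0.60, and cytosolic ribosomal protein genes -0.36, -0.30 and -0.67.

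These medians depended on the shared controls. The saline sample 2 input had the fewest detected genes of the MBH inputs, 12853, and was the highest of the 3 saline libraries for Mrpl4. Without it the members' medians were -0.15, -0.05 and -0.14. Without saline sample 1 they were -0.41, -0.31 and -0.42, and without saline sample 3 -0.47, -0.43 and -0.49. Adding library set to the model gave -0.11, -0.27 and -0.13.

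In the MBH IP the medians were -0.36, -0.04 and -0.07, against -0.29, -0.10 and 0.06 over all genes, and 0 genes passed an unadjusted p under 0.05 in any of the 3 comparisons. Among all genes 0.325% were higher and 1.66% lower at that p after AC3174, 0.318% and 1.25% after AC170222, and 0.535% and 0.325% after the combination. The smallest p belonged to Mrpl43 after AC3174, which had 69.2, 8.40 and 0 CPM against 89.5, 107.7 and 158.9 in saline (-2.12 ± 1.63, adjusted p = 1.0). Both low values came from low-complexity libraries. After AC170222 it belonged to Mrpl27 (0.89 ± 0.72) and after the combination to Mrps18a (-0.54 ± 0.65), each with adjusted p = 1.0.

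How each drug moved the ratio of IP to input was fitted over both kinds of library, which shares its libraries with the comparisons above. At an unadjusted p under 0.05 the DVC ratio was higher for 1 and lower for 4 members after AC3174 (7.34% and 3.07% of all genes), 0 and 2 after AC170222 (6.59% and 2.43%) and 0 and 1 after the combination (7.32% and 2.23%). The MBH ratio gave 0 in either direction for each drug, where 1.39% and 4.11%, 1.29% and 3.99%, and 1.11% and 2.9% of all genes passed. In the DVC, Mrps30 was at 3.02 ± 1.07 after AC3174 (adjusted p = 0.362), where DESeq2 called it higher and Mrpl40, Mrps12 and Mrps18a lower. Mrpl40 was at -1.39 ± 0.51 (adjusted p = 0.365), Mrps26 at -1.67 ± 0.61 after AC170222 (adjusted p = 0.443) and Mrpl18 at -0.99 ± 0.47 after the combination (adjusted p = 0.511). In the MBH, Mrpl28 was at 1.13 ± 0.67, 1.00 ± 0.67 and 0.83 ± 0.67 after AC3174, AC170222 and the combination, with adjusted p of 0.9999, 0.9999 and 1.0. For non-additivity, members above and below 0 at an unadjusted p under 0.05 were 2 and 0 in the DVC IP (1.26% and 3.31% of all genes), 0 and 1 in the DVC input (1.85% and 2.78%), 0 and 0 in the MBH IP (2.26% and 0.291%) and 1 and 0 in the MBH input (2.65% and 1.73%). The smallest p belonged to Mrps26 in the DVC IP (1.84 ± 0.81), Mrpl1 in the DVC input (-0.81 ± 0.33), Mrps5 in the MBH IP (1.11 ± 1.23) and Mrpl15 in the MBH input (0.99 ± 0.38), each with adjusted p = 1.0.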

How the data were processed

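Raw counts of reads per gene were deposited as 1 table, made by the authors with TopHat2 2.0.11 and HTSeq 0.6.1p1 on GRCm38, per the submitters' processing notes. Which annotation, parameters and strand setting were used is not given in the sources used here. Per the labels' protocols, cDNA was amplified with a Smartseq kit and made into Nextera XT libraries, which do not mark strand. Symbols, lengths and overlaps came from GENCODE M21 (GRCm38), which with a gene name table matched 36429 of 38293 identifiers.

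Genes were tested with edgeR 4.0.16 in R 4.3.3 (TMM, filterByExpr, quasi-likelihood F test, 2-sided), on all genes, with Benjamini-Hochberg adjustment over each comparison and calls at adjusted p under 0.05. IP and input, and the change of their ratio, were fitted over the 24 libraries of a region, drugs over the 12 of a region and kind, the interaction over all 48 and the inputs over 24. Values after ± are SE of log2 differences. CPM values used TMM-scaled library sizes, and per-sample ratios a pseudocount of 2 CPM.

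Named genes were, per comparison, the up to 8 called members of smallest p in each direction, otherwise the 3 of smallest p, the extremes of IP versus input, the members with a listed role, and the highest and lowest level per kb. From the other lists, up to 2 called genes per direction were named. Members and lists were chosen with earlier results of these data known. IP and input come from one homogenate, per the labels. Which IP belongs to which input was read from the sample number in the titles and is not stated outright. The main fits do not model this pairing, and the sample block does. Deviations of these pairs hardly correlated (median r 0.014 for DVC pairs and 0.0035 for MBH pairs, 0 of 12 above 0.1 in each region). MBH IP libraries of one number correlated across treatments (median r 0.15, 14 of 18 above 0.1), which the drug fits do not model; blocking on the number there also called 0 members. No library was a copy of another: over 48 replicate pairs, chi-square divided by its degrees of freedom was at least 130.1. Tested on simulated data for DVC IP versus input (18129 genes), the fit recovered 0%, 8%, 34% and 54% of genes changed 1.5, 2, 4 and 8 times, with 4% false calls. The 50 genes changed per fold were drawn from all genes above a low level and not from the members. These shares therefore do not measure recovery for the members. RLE scaling, no filter, DESeq2 1.42.0, limma-voom (limma 3.58.1), library set, blocks, low-complexity libraries and single replicates were tried as alternatives. In fits that hold both IP and input, each low-complexity IP library was left out together with the input of its sample. Shares of all genes called are given for the main fits only, so member counts under alternatives have no such share beside them.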

Additional observations from a re-analysis of the deposited data

Results flagged for a closer look

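For 9 genes the difference between IP and input itself differed between the regions, by the interaction test. The log2 values, DVC minus MBH, were 1.37 for Mrpl13, 1.17 for Mrps14, 1.07 for Mrpl20, 1.22 for Mrps21, 1.06 for Mrps6, 1.10 for Mrps10, 1.06 for Mrpl54, 1.54 for Mrpl52 and 0.97 for Mrpl27. Of the 6 IP libraries with fewer than 12000 detected genes, 5 were from the MBH and 1 from the DVC. Leaving them out with the inputs of the same samples left 1 sample in the AC3174 and AC170222 groups of the MBH. The calls of that fit are not given. The sample block and RLE scaling each gave 2, no filter 4, and leaving out replicate number 1 or 2 gave 0. Over 10 alternatives the calls of Mrpl13 and Mrps14 held in 8 each, Mrpl20, Mrps21 and Mrps10 in 5 each, Mrps6 and Mrpl52 in 4 each and Mrpl54 in 3.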

How the results depend on the processing

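Where calls were reported, 45 of 63 counts under alternatives stayed within 1.5 times the reported count. The other 883 counts belong to reported counts of 0, mostly in drug comparisons that called almost no gene, and say nothing on stability. In DVC IP versus input, limma-voom called 21 higher, the replicate block by sample 13, and library sets 2 and 3 alone 0 higher and 0 lower. Set 1 alone called 2 lower, Mrps30 and Mrps24. Leaving out single replicates gave 31 to 46 higher calls. For the difference between regions, RLE scaling called 2 higher, no filter 4, limma-voom 19, the sample block 2, and leaving out a replicate number 0 to 17. Mrps30 was the 1 lower call under RLE, DESeq2 and without replicate 3 (0 to 1). For DVC against MBH input, DESeq2 called 2 higher, limma-voom 1, the library set covariate 1 and leaving out a number 0 to 1, with 10 to 14 lower. Blocking on replicate number, which pairs samples only by their number, called 1 higher and 27 lower. DESeq2 called 1 higher and 2 lower in the DVC IP after AC3174, 1 higher and 3 lower in its ratio, and 1 lower in the MBH input after AC3174.

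Of 2372 values of named members, 36 changed sign. In DVC IP versus input within set 2 these were Mrpl10 (-0.077), Mrpl16 (-0.45), Mrpl17 (-0.12), Mrpl2 (-0.19), Mrpl23 (-0.53), Mrpl24 (-0.025), Mrpl37 (-0.048), Mrpl38 (-0.59), Mrpl44 (-0.46), Mrpl45 (-0.38), Mrpl46 (-0.062) and Mrps22 (-0.19), and under limma-voom Mrpl38 (-0.043). Mrps18b rose above 0 without low-complexity libraries (0.14), in set 1 (0.31), and without AC170222 3, AC3174 3, combination 1 and saline 3 (0.05, 0.14, 0.08 and 0.07). Mrps27 fell below 0 with RLE (-0.056), DESeq2 (-0.056), limma-voom (-0.61), the block (-0.21), without AC3174 1 (-0.032) and in set 3 (-0.41). In the MBH, Mrps31 went to -1.60 with limma-voom, -0.28 with the block, and -0.49 and -0.46 in sets 2 and 3. Without low-complexity libraries, in the MBH, Mrpl12 went to 0.052 in IP after AC3174, Mrpl27 to -0.55 and Mrps6 to -0.30 in IP after AC170222, the ratio of Mrpl28 to -0.30 after AC3174 and of Mrpl27 to -0.27 after AC170222, and non-additivity in IP to -0.13 for Mrps5 and 0.87 for Mrpl28. The cause was not tested.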
